A study of Mus musculus with 23 samples.

Results

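The genes of glycolysis and of the hypoxia response were followed in skin and healing wounds of diabetic mice. They were chosen by symbol: 34 genes were listed, 33 had a row among the 56379 genes of the count table, and all 33 were among the 23083 genes that passed the filter on low counts. Aldoa, an aldolase, was not analysed here. The members are 13 glycolytic enzymes, 6 glucose or lactate carriers and PFKFB enzymes, 13 other hypoxia targets, and Hif1a itself. All mice carried the HTNF ki/ki and Lepr db/db alleles and were 8 to 12 weeks old. Lepr db/db removes a working leptin receptor in the whole animal and makes mice obese and diabetic. Each mouse received 4 full-thickness wounds from a 6 mm punch, cut through the panniculus carnosus (the thin muscle sheet under mouse skin), a single dose of tramadol at 5 mg per kg, and a film dressing. The arms were vehicle (PBS, called control) and adalimumab, an antibody against tumour necrosis factor, at 20 mg per kg under the skin 2 times a week. Tissue was cut with an 8 mm punch on day 0, 3, 7 or 10. Groups held 3 libraries, except adalimumab day 10 with 2, which makes 23 libraries in 8 groups from 17 mice by their label numbers. Whether the day 0 tissue was cut before the first injection was not given in the sources used here.

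Glycolysis splits glucose into pyruvate in the cytosol, and lactate dehydrogenase then turns pyruvate into lactate when mitochondria are not used. The transcription factor HIF-1 is made of an oxygen-regulated alpha subunit and a constant beta subunit. With enough oxygen, prolyl hydroxylases mark the alpha subunit for destruction. In low oxygen it persists, binds DNA at sites with the core ACGTG or GCGTG, and raises glycolytic enzymes, glucose and lactate carriers and further targets that act on mitochondria, pH, vessels and growth. Wounds are low in oxygen early on, and neutrophils, macrophages and moving keratinocytes all rely on glycolysis. HIF-1 activity is regulated mainly at the level of its protein, which RNA counts do not show.

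Totals ran from 33080930 to 37494760 counts per library, of which the members held 0.285% to 1.29%. All 12 libraries of days 0 and 3 had more counts of Xist than of Ddx3y, and 10 of 11 libraries of days 7 and 10 had the reverse, so that the later days cannot be told apart from male mice. Keratinocyte markers were present in all libraries (8 basal markers summed to 524 to 10910.0 CPM, the count scaled to a fixed library total). 3 features of single libraries touch the results. The summed CPM of 10 skeletal muscle markers was 29921, 14565 and 44334 in control day 0 and 19739, 7477 and 8538 in adalimumab day 0, but 693, 1546 and 331 in control day 3 and 5391, 7111 and 1877 in adalimumab day 3. It was 12449, 30.8 and 47.9 in control day 7, where replicate 1 stood apart. Hair follicle markers summed to 2964 and 17769 CPM in adalimumab day 0 replicates 2 and 3, against 139 to 244 in the other day 0 libraries. Adalimumab day 3 held libraries unlike each other. Its replicate 2 held 2619.6 CPM of neutrophil markers, against 346 and 706 in replicates 1 and 3, and 3233 CPM of inflammatory mediators, against 376 and 367. Its replicate 1 held 1.30 CPM of wound keratinocyte markers, against 2569 and 3162 in replicates 2 and 3. That library also held 4897 CPM of adipocyte markers, against 488 and 404, and 14008 CPM of erythrocyte markers, against 6326 and 1875. In such bulk tissue fewer cells of a type and less RNA per cell cannot be told apart.

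**Figure D1:**
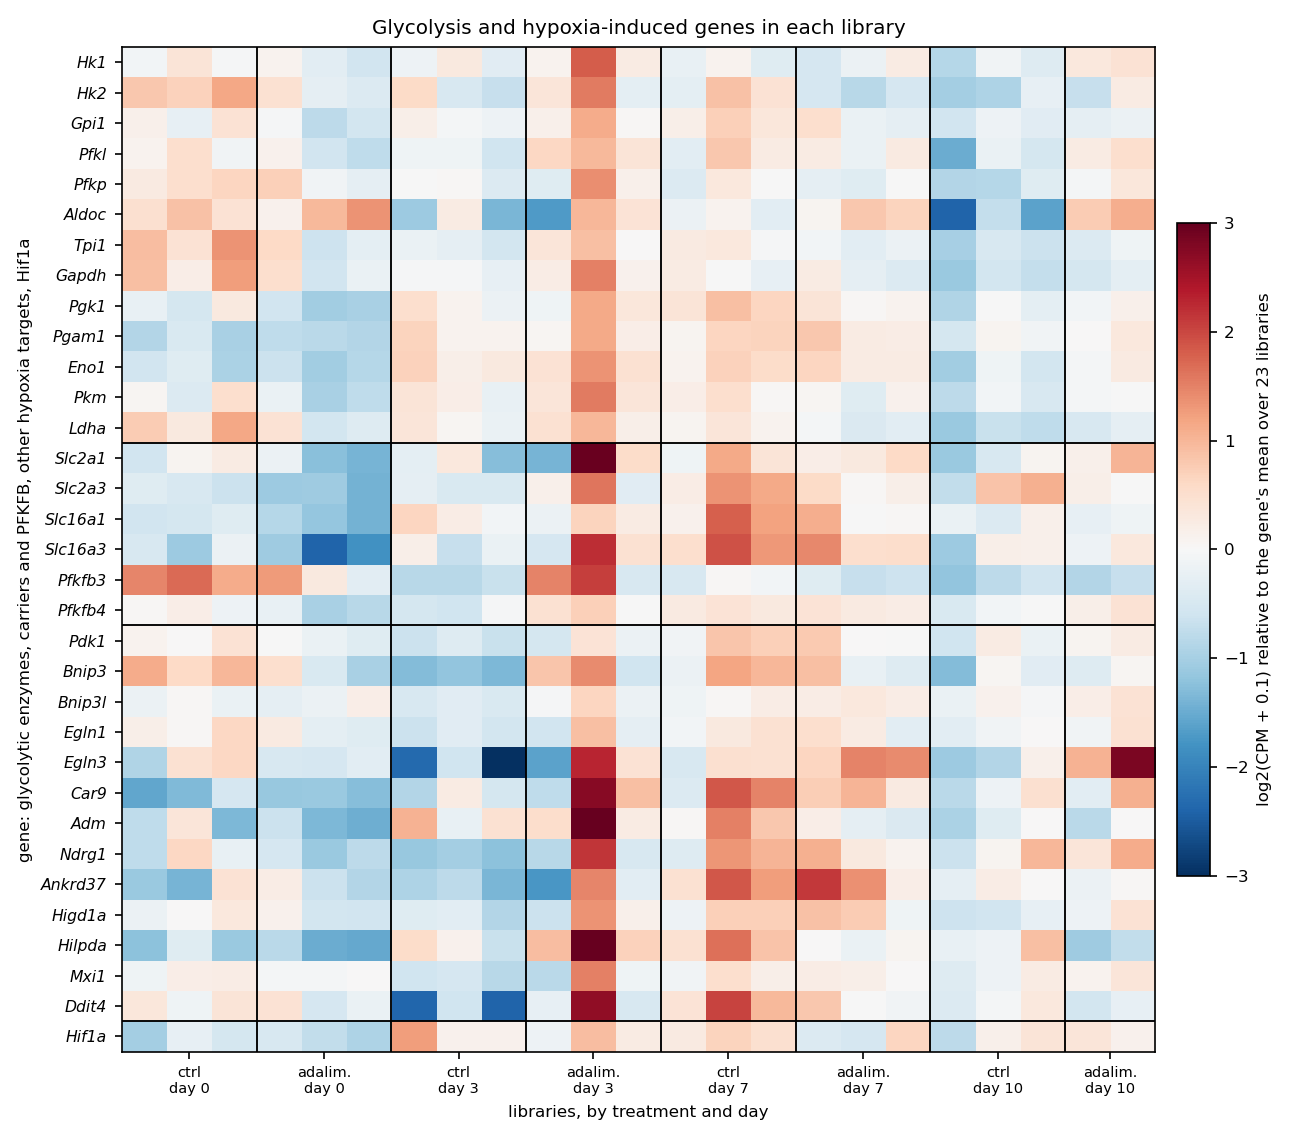
Each row is a gene and each column a library, in groups of treatment and day (ctrl, control; adalim., adalimumab) with replicates in order. Colour is log2(CPM + 0.1) relative to the gene's mean over the 23 libraries, and black lines part the groups and the gene classes. Adalimumab day 3 replicate 2 is the darkest red column, with Slc2a1 at 553 CPM and Ddit4 at 289 CPM.

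The first question was how the members changed as wounds aged. A member counts as called where the adjusted p of edgeR's quasi-likelihood test, by Benjamini and Hochberg over all 23083 genes, was under 0.05. In control wounds 3 members rose and 5 fell from day 0 to day 3, where 17.5% of all genes rose and 17.1% fell. From day 0 to day 7, 9 rose and 1 fell (16.4% and 17% of all genes), and from day 0 to day 10, 0 rose and 8 fell (16.2% and 18.2%). In adalimumab wounds 16 of 33 members rose by day 3, against 11.9% of all genes, 9 by day 7 against 14.6%, and 4 by day 10 against 9.02%. In adalimumab 0 members fell, against 9.54%, 17.9% and 5.41% of all genes. At an unadjusted p under 0.05, 2 members were higher in control day 10, against 21.4% of all genes, and in adalimumab 0, 1 and 1 members were lower on days 3, 7 and 10, against 17.8%, 24.5% and 17%. DESeq2 called 0 members in each of these 4 cases, and 18.6%, 11.6%, 18.1% and 8.39% of all genes in the same order. Markers of cell types changed as well. By day 3, 10 of 10 macrophage markers rose in both arms. Of 10 neutrophil markers, 5 rose and 1 fell in control, and 9 rose and 0 fell in adalimumab. By day 7 in control, 8 of 8 fibroblast markers rose (median 3.56), 7 of 8 adipocyte markers fell (-5.15) and 6 of 8 basal keratinocyte markers fell (-2.54). In adalimumab by day 7, 7 of 8 fibroblast markers rose (3.28), and 8 of 8 adipocyte (-5.69) and 12 of 12 hair follicle markers fell (-6.46). The part of these cells in the members' changes was not tested. Whichever single library of a comparison was left out, 4 of 8 calls stood in control day 3, 4 of 10 in control day 7 and 5 of 8 in control day 10. The same count was 7 of 16 in adalimumab day 3, 6 of 9 in adalimumab day 7 and 0 of 4 in adalimumab day 10. Counts moved most in control day 3 without control day 0 replicate 1 (5) or 3 (4) or day 3 replicate 1 (5), and in control day 7 without day 0 replicate 1 (6) or day 7 replicate 2 (4). In adalimumab day 3 they moved to 10 without day 0 replicate 3 and to 8 without day 3 replicate 2, and in adalimumab day 10 to 1 without day 0 replicate 2 or 3 and to 0 without either day 10 library. The day 0 and day 3 libraries of an arm come from the same animals by their label numbers. With the animal as a block, fitted to those days alone, 3 members were called in control, where 24.4% of all genes were, and 5 in adalimumab, where 7.2% were. Without adalimumab day 0 replicates 2 and 3, 0 members were called in adalimumab day 3, 1 (lower) in day 7 and 0 in day 10, against 3.41%, 12.1% and 3.05% of all genes.

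**Figure D2:**
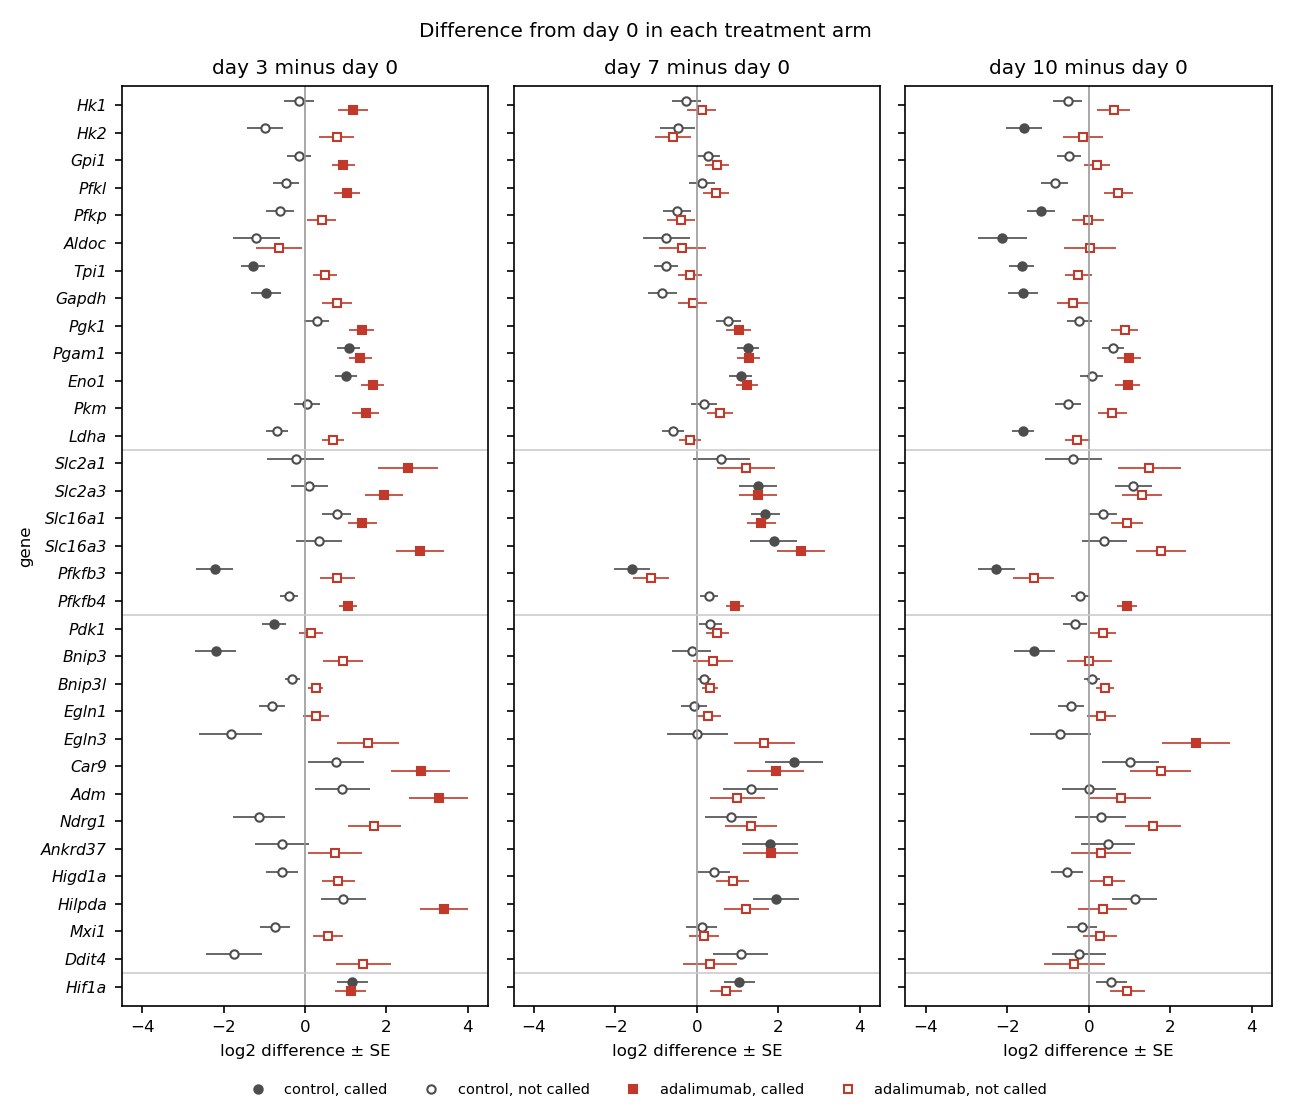
Log2 difference from day 0 (horizontal axis, with SE bars) of each gene (vertical axis), in control (grey circles) and adalimumab (red squares). Filled symbols passed the adjusted p of 0.05. On day 3 most red squares lie to the right of the grey circles, while on day 7 both arms show raised Slc16a3, at 1.89 in control and 2.56 in adalimumab.

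Among the 13 glycolytic enzymes, Pgam1 and Eno1 rose by day 3 in both arms. In control 2 others fell by day 3, and in adalimumab 5 others rose. Pgam1 encodes the phosphoglycerate mutase of most tissues. It stood at 124, 166 and 117 CPM in control day 0, 362, 248 and 248 in day 3 and 243, 361 and 367 in day 7. Its adalimumab values were 136, 129.9 and 125 CPM in day 0, 239.5, 502 and 261 in day 3 and 404, 272 and 269 in day 7. Each day 3 and day 7 library of an arm lay above every day 0 library of that arm. The log2 difference from day 0 to day 3 was 1.07 ± 0.28 SE, adjusted p = 0.00679 in control and 1.36 ± 0.28 SE, adjusted p = 0.00246 in adalimumab, and with the animal as a block 1.10 (adjusted p = 0.0391) and 1.30 (adjusted p = 0.0505). From day 0 to day 7 it was 1.25 ± 0.28 SE, adjusted p = 0.00285 and 1.27 ± 0.28 SE, adjusted p = 0.0028, and these 4 calls stood whichever library was left out. Reads of Pgam1 are uncertain to a degree: rows of its pseudogenes held up to 21.3% of the counts of Pgam1.

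Eno1, the enolase of most tissues, also rose. Its values were 277, 319 and 212 CPM in control day 0, 658, 465 and 504 in day 3, 443, 661 and 602 in day 7 and 198, 372 and 278 in day 10. In adalimumab they were 263, 198 and 225 CPM on day 0, 557, 1046 and 565 on day 3, 644, 488 and 483 on day 7 and 396 and 494 on day 10. Groups of days 3 and 7 did not overlap day 0 in either arm, and control day 10 did. The day 3 difference was 1.01 ± 0.28 SE, adjusted p = 0.00972 in control, where the call ended without control day 0 replicate 3 (0.86) or control day 3 replicate 1 (0.85) and with the animal as a block (1.05, adjusted p = 0.0554). In adalimumab it was 1.66 ± 0.28 SE, adjusted p = 0.00054, and the call stood under each of these omissions and the block. On day 7 the differences were 1.08 ± 0.28 SE and 1.23 ± 0.28 SE, with adjusted p = 0.00709 and 0.00344.

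Tpi1, Gapdh, Ldha and Hk2 fell by day 10 in control wounds. Tpi1, triosephosphate isomerase, stood at 461, 326 and 616 CPM in control day 0, 210.2, 200.2 and 165 in day 3, 292, 300.1 and 235 in day 7 and 120.4, 172 and 155 in day 10. All 9 wound libraries of the arm lay below all 3 of day 0. It fell by day 3 (-1.29 ± 0.30 SE, adjusted p = 0.00321) and by day 10 (-1.65 ± 0.30 SE, adjusted p = 0.000624), and with the animal as a block the day 3 difference was -1.21 (adjusted p = 0.0635). Adalimumab values were 363, 155 and 196 CPM in day 0, 311, 452 and 242 in day 3, 228, 194 and 211 in day 7 and 181 and 219 in day 10, groups that overlap, and no difference from day 0 was called.

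Ldha encodes the A subunit of lactate dehydrogenase, which makes lactate. It was at 716, 525 and 949 CPM in control day 0, 547, 439 and 370.1 in day 3, 451, 551 and 454 in day 7 and 197, 267 and 252 in day 10. Days 3 and 7 overlapped day 0, and day 10 lay wholly below it (-1.61 ± 0.28 SE, adjusted p = 0.000484). In adalimumab it was at 577, 289 and 325 CPM on day 0, 584, 847 and 480.1 on day 3, 406, 313 and 341 on day 7 and 304 and 351 on day 10, with overlap between day 0 and each later day. Hk2, the hexokinase induced by insulin and hypoxia, stood at 127, 116 and 162 CPM in control day 0, 107, 51.5 and 44.9 in day 3, 59.1, 134 and 98.5 in day 7 and 35.7, 38.0 and 60.7 in day 10. Its day 10 fall (-1.59 ± 0.45 SE, adjusted p = 0.0112) was called, while the values of day 3 (-0.99, adjusted p = 0.0882) and day 7 (-0.47, adjusted p = 0.419) were not. In adalimumab Hk2 was at 99.7, 60.4 and 54.6 CPM on day 0, 93.9, 214 and 58.9 on day 3, 51.1, 40.9 and 50.9 on day 7 and 44.8 and 85.3 on day 10. Gapdh, which oxidises glyceraldehyde phosphate and often serves as a reference gene, fell by day 10 in control (-1.62 ± 0.37 SE, adjusted p = 0.003), from 1393, 859 and 1787 CPM to 344, 511 and 458 CPM. Its day 3 call in control (-0.96 ± 0.36 SE, adjusted p = 0.0476) ended without any 1 of the 6 libraries (-0.70 to -0.99) except control day 0 replicate 2 (-1.16) and with the animal as a block (-0.86, adjusted p = 0.233).

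Pgk1, phosphoglycerate kinase, makes ATP in the later steps of the pathway. Its values were 326, 262 and 462 CPM in control day 0, 537, 406 and 336 in day 3, 499.5, 705 and 592 in day 7 and 202, 379 and 312 in day 10, and no difference was called in that arm. In adalimumab they were 254, 185 and 195 CPM on day 0, 348, 834 and 484 on day 3, 496, 387 and 408 on day 7 and 359.7 and 421 on day 10. Every adalimumab wound library lay above every day 0 library of the arm, and Pgk1 rose by day 3 (1.39 ± 0.31 SE, adjusted p = 0.00419; 1.34 and adjusted p = 0.0883 with the animal as a block) and by day 7 (1.03 ± 0.31 SE, adjusted p = 0.0171). The difference on day 10 was 0.89 ± 0.33 SE, adjusted p = 0.0809. Pkm, pyruvate kinase, rose in adalimumab day 3 (1.49 ± 0.33 SE, adjusted p = 0.00413; 1.42 and adjusted p = 0.103 with the block), as did Hk1 (1.18), Gpi1 (0.94) and Pfkl (1.04). The calls of those last 3 ended without adalimumab day 3 replicate 2, at 0.41, 0.52 and 0.86, and without adalimumab day 0 replicate 2 or 3. Aldoc, the brain aldolase, was low throughout, at 3.99, 5.31 and 3.87 CPM in control day 0, 1.29, 3.42 and 1.03 in day 3, 2.51, 3.05 and 2.26 in day 7 and 0.457, 1.69 and 0.868 in day 10. Its adalimumab values were 3.10, 5.72 and 7.35 CPM on day 0, 0.812, 5.78 and 3.80 on day 3, 3.01, 5.04 and 4.60 on day 7 and 4.89 and 6.13 on day 10. Control day 10 lay wholly below control day 0, a difference of -2.12 ± 0.60 SE (adjusted p = 0.012) that was not called without control day 10 replicate 1 (-1.76) or 3 (-1.96). Pfkp, the platelet phosphofructokinase, fell by day 10 in control (-1.17 ± 0.35 SE, adjusted p = 0.0162), a call that ended without control day 0 replicate 3 (-1.02) or control day 10 replicate 1 (-1.06) or 2 (-1.10).

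The muscle forms of the same enzymes, which are no members, moved against Pgam1 and Eno1. Pgam2, the muscle phosphoglycerate mutase, stood at 212, 76.4 and 316 CPM in control day 0 and 5.30, 7.83 and 2.81 in day 3 (log2 difference -5.24 ± 1.26 SE, adjusted p = 0.00434). Eno3, the muscle enolase, stood at 929, 360.3 and 1423 CPM and 20.2, 43.6 and 18.2 CPM (-5.05 ± 1.20 SE, adjusted p = 0.00396). Pfkm, the muscle phosphofructokinase, fell too (-4.65 ± 0.81 SE, adjusted p = 0.000417). In adalimumab Pgam2 went from 118, 41.5 and 68.6 CPM in day 0 to 25.1, 36.6 and 9.35 in day 3, and Eno3 from 514, 202 and 277 to 127, 140.3 and 53.4, without a call. Control day 7 replicate 1, the library rich in muscle markers, held 64.1 CPM of Pgam2 and 322 CPM of Eno3, against 1.23 to 1.77 and 7.64 to 8.14 in replicates 2 and 3. Of the 10 muscle markers, 8 fell from day 0 to day 3 in control and 0 in adalimumab, with median log2 differences of -5.01 and -1.28. Bnip3, Pfkfb3, Pdk1, Tpi1 and Gapdh, the members that fell in control day 3, did so where muscle markers fell too. In the muscle-rich control day 7 replicate 1, Bnip3, Pfkfb3 and Pdk1 had the lowest value of their group. Tpi1 had the middle value there and Gapdh the highest. Other marker lists fell from day 0 to day 3 in control as well. The falls covered 5 of 8 adipocyte markers (median -4.25), 4 of 8 basal keratinocyte markers (-1.86) and 4 of 10 differentiated epidermis markers (-2.69). In each of these lists 0 rose. The part of muscle, fat or epidermis in the day 3 falls was not tested.

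**Figure D3:**
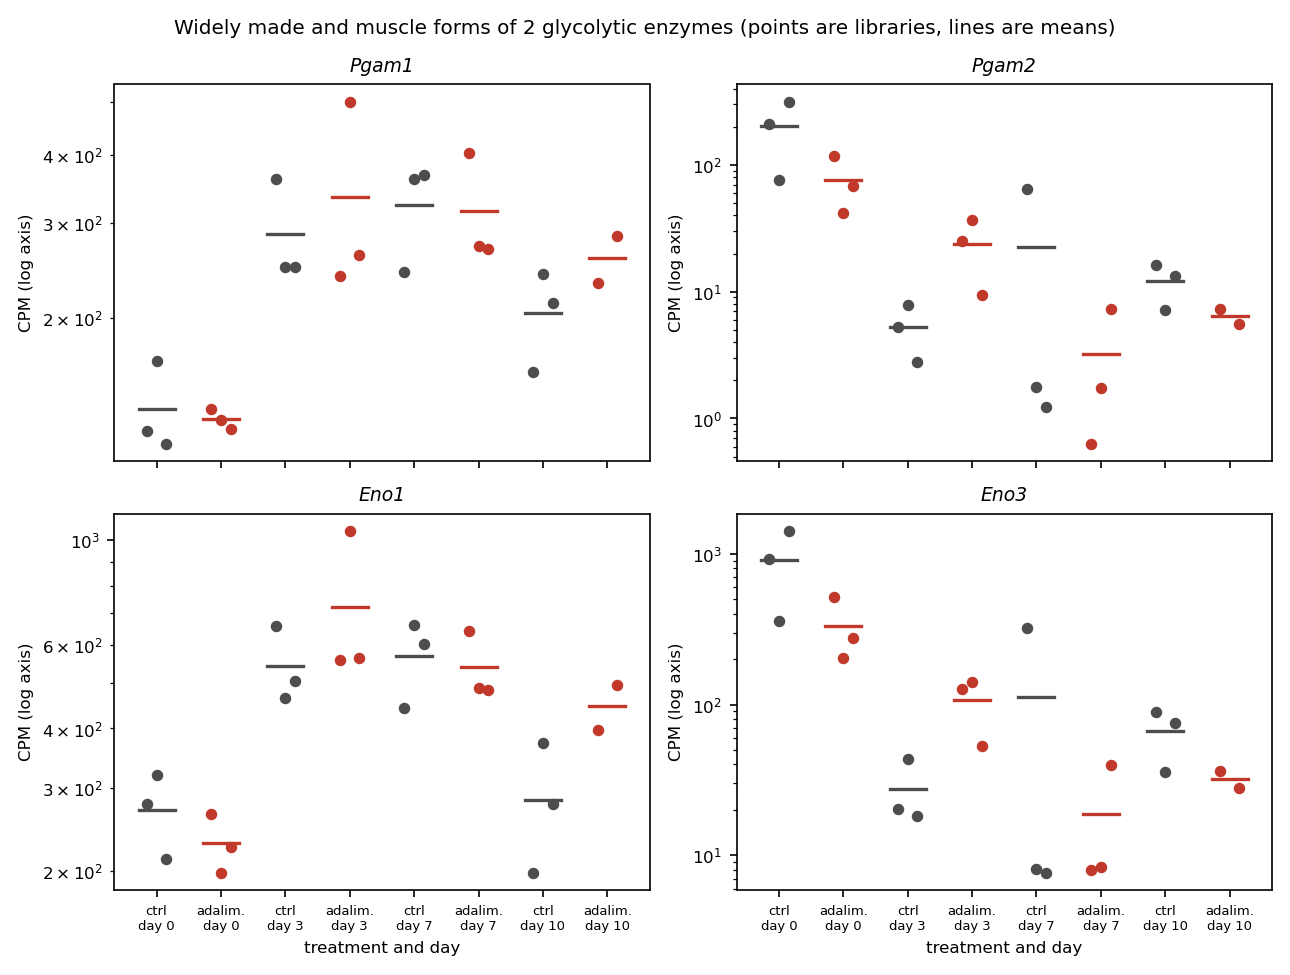
CPM on a log axis (vertical, own scale in each panel) of Pgam1, Pgam2, Eno1 and Eno3 in each library (points) and the group mean (lines), by treatment and day (ctrl, control in grey; adalim., adalimumab in red). Within each arm, Pgam1 and Eno1 lie higher in days 3 and 7 than in day 0, and Pgam2 and Eno3 lie lower. Control day 7 replicate 1 comes nearest to day 0 of its arm for Pgam2 and Eno3.

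The carriers Slc16a3, Slc16a1 and Slc2a3 rose by day 7 in both arms. Slc16a3 (MCT4) exports lactate and is a target of HIF-1. It stood at 22.5, 14.8 and 28.1 CPM in control day 0, 35.9, 19.5 and 27.7 in day 3, 44.6, 119.6 and 78.4 in day 7 and 14.8, 35.7 and 35.1 in day 10. Its adalimumab values were 15.0, 5.91 and 8.95 CPM on day 0, 22.2, 146 and 43.3 on day 3, 85.9, 44.9 and 45.5 on day 7 and 28.6 and 39.4 on day 10. All day 7 libraries lay above all day 0 libraries of their arm, and so did those of adalimumab days 3 and 10. The rise by day 7 was 1.89 ± 0.57 SE, adjusted p = 0.0179 in control, lost without control day 0 replicate 2 (1.73) or control day 7 replicate 2 (1.54), and 2.56 ± 0.59 SE, adjusted p = 0.00391 in adalimumab. By day 3 it was 2.83 ± 0.60 SE in adalimumab (adjusted p = 0.00299), 1.72 without replicate 2 of day 3, and 2.48 with the animal as a block (adjusted p = 0.0843).

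Slc16a1 (MCT1), which carries lactate in either direction, stood at 67.0, 69.2 and 77.3 CPM in control day 0, 156, 116 and 93.6 in day 3, 109.9, 344 and 231 in day 7 and 86.3, 74.9 and 110.1 in day 10. Its adalimumab values were 55.0, 44.9 and 37.6 CPM on day 0, 88.7, 159 and 118 on day 3, 212, 98.4 and 103 on day 7 and 84.2 and 91.5 on day 10. Day 7 did not overlap day 0 in either arm, and the differences were 1.68 ± 0.36 SE and 1.59 ± 0.36 SE (adjusted p = 0.00214 and 0.00343). Slc2a3 (GLUT3), a glucose carrier of high affinity found on neurons and leukocytes, rose by 1.50 ± 0.46 SE and 1.51 ± 0.46 SE by day 7 (adjusted p = 0.0189 and 0.0198). Its call ended in control without day 0 replicate 3 (1.48) or day 7 replicate 2 (1.31) or 3 (1.42), and in adalimumab without day 0 replicate 3 (1.50) or day 7 replicate 1 (1.44). Slc2a1 (GLUT1), the main glucose carrier of keratinocytes, was uneven within groups. It stood at 47.3, 74.6 and 82.7 CPM in control day 0, 57.7, 87.8 and 29.0 in day 3, 64.4, 155 and 91.4 in day 7 and 32.4, 50.0 and 74.9 in day 10, and at 62.1, 29.6 and 26.6 CPM on day 0, 26.8, 553 and 103 on day 3, 81.2, 85.7 and 107 on day 7 and 78.5 and 143 on day 10 in adalimumab. Day 3 of adalimumab held the highest of these values and nearly the lowest. Its call there (2.53 ± 0.74 SE, adjusted p = 0.0217) ended without day 3 replicate 2, with a difference of 0.72, and without day 0 replicate 2 (2.35) or 3 (2.30). With the animal as a block it was 1.76 (adjusted p = 0.333).

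The PFKFB enzymes make and remove a sugar phosphate that activates phosphofructokinase. Pfkfb3, the form with the strongest kinase activity, fell and stayed low in control wounds. Its values were 260.0, 307 and 205 CPM in day 0, 53.2, 53.6 and 59.6 in day 3, 68.5, 96.8 and 90.3 in day 7 and 41.8, 55.2 and 63.6 in day 10. All 9 wound libraries lay below all 3 of day 0. The differences were -2.21 ± 0.45 SE, -1.60 ± 0.44 SE and -2.27 ± 0.45 SE (adjusted p = 0.00144, 0.0111 and 0.00134), called whichever library was left out and on day 3 also with the animal as a block (-2.16). In adalimumab the values were 231, 115 and 76.3 CPM on day 0, 267, 398 and 67.7 on day 3, 73.6, 59.0 and 62.0 on day 7 and 51.2 and 59.1 on day 10. There day 3 replicates 1 and 2 lay above all day 0 libraries of the arm and replicate 3 below all of them. All libraries of adalimumab days 7 and 10 also lay below all of day 0, as in control, at differences of -1.12 and -1.35. No difference from day 0 was called in adalimumab. Pfkfb4, a related form, stood at 24.6, 14.5 and 16.2 CPM in adalimumab day 0, 39.2, 47.1 and 28.2 in day 3, 38.4, 34.7 and 33.3 in day 7 and 32.5 and 38.4 in day 10, with every later library above day 0. It rose by 1.05 ± 0.22 SE, 0.95 ± 0.22 SE and 0.95 ± 0.24 SE (adjusted p = 0.00287, 0.0042 and 0.0146). The day 10 call ended without either day 10 replicate, and the day 3 call with the animal as a block (1.08, adjusted p = 0.0688). In control Pfkfb4 stood at 29.5, 32.8 and 25.8 CPM on day 0, 19.8, 18.8 and 28.1 on day 3, 34.8, 38.2 and 35.2 on day 7 and 20.7, 26.9 and 28.6 on day 10, with no call.

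Among the other hypoxia targets, Bnip3 fell by day 3 in control wounds. Bnip3 encodes a mitochondrial outer membrane protein that drives removal of mitochondria. It stood at 188, 132 and 173 CPM in control day 0, 35.1, 38.1 and 34.1 in day 3, 76.6, 198 and 175 in day 7 and 35.5, 90.4 and 69.1 in day 10. Day 3 lay below every other group of the arm except for control day 10 replicate 1. The difference from day 0 was -2.20 ± 0.51 SE, adjusted p = 0.00351 on day 3, called whichever library was left out and with the animal as a block (-2.15, adjusted p = 0.0103), and -0.13 ± 0.49 SE on day 7 (adjusted p = 0.858). On day 10 it was -1.34 ± 0.50 SE, adjusted p = 0.0456, a call that only the fit without control day 10 replicate 2 kept (-1.65). In adalimumab Bnip3 stood at 124, 63.5 and 44.2 CPM on day 0, 154, 233 and 57.7 on day 3, 164, 74.2 and 66.1 on day 7 and 66.0 and 90.0 on day 10, with overlap between day 0 and each later day. Pdk1, which switches pyruvate away from mitochondria, was called lower in control day 3 (-0.76 ± 0.29 SE, adjusted p = 0.0483). That call was lost without each of the 6 libraries in turn (-0.62 to -0.86) and with the block (-0.72, adjusted p = 0.0909).

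Car9, Ankrd37 and Hilpda rose by day 7 in control wounds. Car9 encodes carbonic anhydrase IX, a cell surface enzyme that handles acid and a common marker of hypoxia. Its values were 1.29, 1.54 and 2.77 CPM in control day 0, 2.11, 4.71 and 2.73 in day 3, 2.96, 14.8 and 11.4 in day 7 and 2.23, 3.59 and 5.58 in day 10. In adalimumab they were 1.75, 1.77 and 1.58 CPM on day 0, 2.30, 26.7 and 7.54 on day 3, 6.65, 8.13 and 4.78 on day 7 and 3.15 and 8.44 on day 10. Day 7 did not overlap day 0 in either arm, at differences of 2.38 ± 0.71 SE and 1.93 ± 0.70 SE (adjusted p = 0.0167 and 0.0432). The control call ended without day 0 replicate 1 (2.22) or day 7 replicate 2 (2.00), and the adalimumab call without any 1 of its libraries (1.86 to 2.08) except day 7 replicate 3 (2.23). On day 3 of adalimumab the difference was 2.84 ± 0.72 SE (adjusted p = 0.0104), and 1.53 and uncalled without replicate 2.

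Ankrd37, an ankyrin repeat protein found as a HIF-1 target, stood at 1.79, 1.46 and 5.45 CPM in control day 0, 2.08, 2.29 and 1.50 in day 3, 5.55, 14.9 and 9.78 in day 7 and 3.32, 4.68 and 4.03 in day 10. In adalimumab it stood at 4.69, 2.53 and 2.15 CPM on day 0, 1.14, 11.3 and 3.21 on day 3, 17.7, 10.6 and 4.60 on day 7 and 3.56 and 4.12 on day 10. The day 7 differences were 1.80 ± 0.68 SE and 1.81 ± 0.68 SE with adjusted p = 0.049 and 0.048, just under the threshold. Each was lost without any 1 of 4 of its 6 libraries, in control at 1.45 to 1.84 (day 0 replicates 1 and 2, day 7 replicates 2 and 3) and in adalimumab at 1.40 to 1.95 (day 0 replicates 2 and 3, day 7 replicates 1 and 2). Hilpda, a lipid droplet protein that slows lipolysis, stood at 10.0, 18.2 and 11.0 CPM in control day 0, 34.4, 25.9 and 14.9 in day 3, 32.5, 74.8 and 42.9 in day 7 and 20.2, 21.3 and 44.4 in day 10. Day 7 lay wholly above day 0 (1.94 ± 0.56 SE, adjusted p = 0.0143; not called without day 0 replicate 1, 1.82, or day 7 replicate 2, 1.57). In adalimumab it stood at 13.4, 8.42 and 8.16 CPM on day 0, 45.2, 237 and 38.3 on day 3, 24.0, 20.5 and 25.1 on day 7 and 11.2 and 14.1 on day 10. Day 3 held its highest values and gave the largest difference among members in that comparison (3.42 ± 0.60 SE, adjusted p = 0.000707). That call stood whichever library was left out (2.06 without replicate 2 of day 3) and with the animal as a block (2.90, adjusted p = 0.0428). Control day 7 replicate 1, the library with 12449 CPM of muscle markers, had the lowest value of its group for Car9, Ankrd37 and Hilpda, and the part of tissue makeup in this was not tested.

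Adm, Ndrg1, Egln3 and Ddit4 had no call in control wounds. Adm, adrenomedullin, a peptide that widens vessels, stood at 5.10, 11.2 and 3.38 CPM in control day 0, 17.9, 7.39 and 11.9 in day 3, 8.89, 25.1 and 15.4 in day 7 and 4.42, 6.69 and 8.74 in day 10, and at 5.53, 3.33 and 3.07 CPM on day 0, 12.5, 93.5 and 10.4 on day 3, 10.0, 7.20 and 6.43 on day 7 and 4.89 and 8.79 on day 10 in adalimumab. Its day 3 call in adalimumab (3.29 ± 0.72 SE, adjusted p = 0.00408) ended without replicate 2 (1.53). Ndrg1, a growth and differentiation protein of epithelium, stood at 72.8, 192 and 107 CPM in control day 0, 56.2, 61.7 and 52.6 in day 3, 95.6, 314 and 253 in day 7 and 79.2, 131 and 248 in day 10, and at 87.7, 57.3 and 71.6 CPM on day 0, 69.8, 547 and 89.3 on day 3, 260.5, 154 and 134 on day 7 and 161 and 270.4 on day 10 in adalimumab. No difference from day 0 was called for Ndrg1, though control day 3 lay wholly below control day 0 (-1.13 ± 0.64 SE, adjusted p = 0.18).

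Egln3 encodes PHD3, a prolyl hydroxylase that hypoxia induces and that acts back on HIF. Its values were 25.3, 65.6 and 73.1 CPM in control day 0, 9.42, 31.4 and 5.45 in day 3, 34.1, 66.4 and 65.3 in day 7 and 22.2, 26.0 and 53.1 in day 10. In adalimumab they were 34.1, 33.7 and 38.4 CPM on day 0, 15.6, 231 and 64.0 on day 3, 74.2, 134 and 127 on day 7 and 98.5 and 339 on day 10. The 2 libraries of adalimumab day 10 lay above all of day 0, and the difference (2.63 ± 0.83 SE, adjusted p = 0.0426) was not called without any 1 of the 5 libraries (1.48 to 3.27). Markers of differentiated epidermis were high in the same 2 libraries, at 14722 and 20793 CPM against 1231, 1033 and 1828 in control day 10, and their part in the Egln3 values was not tested. Ddit4 (REDD1), which restrains mTOR signalling under stress, stood at 57.6, 41.9 and 60.1 CPM in control day 0, 8.69, 30.2 and 8.57 in day 3, 60.9, 187 and 89.2 in day 7 and 34.5, 43.7 and 56.6 in day 10. In adalimumab it stood at 61.3, 32.4 and 39.7 CPM on day 0, 38.4, 289 and 32.7 on day 3, 79.5, 45.1 and 42.4 on day 7 and 31.0 and 38.4 on day 10. Control day 3 lay wholly below control day 0, at a difference of -1.75 ± 0.68 SE that missed the threshold (adjusted p = 0.0554). The other targets of this class, Bnip3l, Egln1, Higd1a and Mxi1, had no call in any comparison, with differences from day 0 between -0.81 and 0.88.

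Hif1a itself rose by day 3 in both arms. It stood at 162, 279.6 and 229 CPM in control day 0, 784, 358 and 360.3 in day 3, 395, 526 and 459.7 in day 7 and 189.7, 364 and 428 in day 10. In adalimumab it stood at 236, 198 and 173 CPM on day 0, 296, 630.1 and 393 on day 3, 248, 231 and 517 on day 7 and 421 and 362 on day 10. Day 3 did not overlap day 0 in either arm. Hif1a rose by day 3 in control (1.16 ± 0.39 SE, adjusted p = 0.0267) and adalimumab (1.12 ± 0.39 SE, adjusted p = 0.046) and by day 7 in control (1.04 ± 0.39 SE, adjusted p = 0.0449). None of the 3 calls stood under every omission of a library: the values ran from 0.69 to 1.39, from 0.77 to 1.38 and from 0.90 to 1.29. In control day 3 the call ended without day 0 replicate 1 or 3 or day 3 replicate 1, in adalimumab day 3 without any day 0 library or day 3 replicate 2, and in control day 7 without any library but day 0 replicate 2. The lowest value in control day 3 came without control day 3 replicate 1, and that in adalimumab day 3 without its replicate 2. With the animal as a block the day 3 values were 1.11 (adjusted p = 0.108) and 1.09 (adjusted p = 0.162).

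The windows before the start sites of these genes were searched for the HIF core. RefSeq promoters (build GRCm38.p6) were at hand for 30 of the 33 members, with the first listed start of each gene, and the 250 bases before that start were read on both strands for ACGTG and for GCGTG. The first was found in 15 of 30 members (50%) and in 16.6% of all 27025 promoters of the same length. The other was found in 16 of 30 (53.3%) and in 28.2% of all. Either was found in 24 of 30 (80%) and in 38.6% of all, with 9 of 13 glycolytic enzymes, 5 of 5 carriers and PFKFB enzymes and 9 of 11 other hypoxia targets. Gpi1, Hilpda, Hk1, Mxi1, Pkm and Tpi1 had neither in this window. A match describes letters and not binding. The members were listed as genes of glycolysis and hypoxia, and base composition was not matched between their windows and all promoters. The higher shares among members therefore cannot be read as a link to HIF. 4 windows are shown, because their genes have 2 or more matches of ACGTG and yet followed different courses in control wounds: Slc16a3 and Ankrd37 were higher on day 7, Bnip3 dipped on day 3 and Ldha was lower on day 10. Capitals mark the matches, which are printed as their reverse complement where they lie on the other strand. Matches on both strands share letters where they meet. Each runs 5′ to 3′ along the gene's strand, and the last letter is the base just before the start. Slc16a3 is on the plus strand at chr11:120948817-120949066, Ankrd37 on the minus strand at chr8:45999851-46000100, Bnip3 on the minus strand at chr7:138909507-138909756 and Ldha on the plus strand at chr7:46845554-46845803.
Slc16a3: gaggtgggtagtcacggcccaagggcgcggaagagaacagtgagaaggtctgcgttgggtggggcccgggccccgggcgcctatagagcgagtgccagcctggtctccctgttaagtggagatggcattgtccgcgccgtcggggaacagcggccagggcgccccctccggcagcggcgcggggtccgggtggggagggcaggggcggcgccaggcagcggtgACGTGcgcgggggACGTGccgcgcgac
Ankrd37: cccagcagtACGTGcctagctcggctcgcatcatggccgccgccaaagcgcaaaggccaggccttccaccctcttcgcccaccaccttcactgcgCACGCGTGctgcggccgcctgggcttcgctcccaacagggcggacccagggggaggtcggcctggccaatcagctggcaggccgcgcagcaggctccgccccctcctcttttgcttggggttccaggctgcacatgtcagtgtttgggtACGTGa
Bnip3: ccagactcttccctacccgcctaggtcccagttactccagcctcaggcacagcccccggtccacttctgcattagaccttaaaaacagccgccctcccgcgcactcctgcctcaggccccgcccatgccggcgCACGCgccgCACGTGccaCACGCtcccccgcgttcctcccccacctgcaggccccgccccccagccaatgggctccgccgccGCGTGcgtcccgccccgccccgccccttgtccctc
Ldha: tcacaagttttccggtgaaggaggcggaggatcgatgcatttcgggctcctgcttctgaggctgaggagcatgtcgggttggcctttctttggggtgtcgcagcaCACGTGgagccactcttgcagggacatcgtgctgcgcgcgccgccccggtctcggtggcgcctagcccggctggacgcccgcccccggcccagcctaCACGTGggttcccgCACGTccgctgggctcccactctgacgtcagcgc
Slc16a3 has its 2 matches 14 and 27 bases before the start. Ankrd37 has 4 matches, from 6 to 241 bases before it, Bnip3 has 5, from 35 to 117, and Ldha has 5, all of ACGTG, from 34 to 145. The ACGTG matches of Bnip3 at 108 and 107 bases are the same stretch, CACGTG, read on both strands. So are those of Ldha at 145 and 144 bases, and those at 48 and 47 bases.

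Glycolytic enzymes and the other hypoxia targets were then set against each other. Each gene's log2 CPM was centred on its mean over the 23 libraries, and the score of a class is the average of its centred genes, so it compares libraries within a class. The glycolytic score was 0.21, 0.15 and 0.40 in control day 0, 0.13, 0.02 and -0.35 in day 3, 0.01, 0.49 and 0.16 in day 7 and -1.06, -0.37 and -0.54 in day 10. The score of the other hypoxia targets was -0.40, -0.07 and 0.05 on day 0, -0.78, -0.46 and -1.05 on day 3, -0.05, 1.10 and 0.78 on day 7 and -0.60, -0.13 and 0.18 on day 10. In control, the mean hypoxia score was thus lowest on day 3 and highest on day 7, and the mean glycolytic score was lowest on day 10. In adalimumab the glycolytic score was 0.07, -0.51 and -0.43 on day 0, 0.07, 1.27 and 0.20 on day 3, 0.12, -0.14 and 0.02 on day 7 and -0.10 and 0.19 on day 10. The hypoxia score there was -0.18, -0.65 and -0.66 on day 0, -0.43, 1.87 and -0.01 on day 3, 0.70, 0.39 and 0.07 on day 7 and -0.14 and 0.47 on day 10. Both means were lowest on day 0 and highest on day 3 in that arm, where replicate 2 held the highest values. The day 3 peak of the hypoxia mean rests on that library. Day 3 replicates 1 and 3 (-0.43 and -0.01) had lower hypoxia scores than every day 7 library of the arm. Glycolytic minus hypoxia scores averaged 0.39 ± 0.20 (SD, n = 3) in control day 0, 0.69 ± 0.22 in day 3, -0.39 ± 0.39 in day 7 and -0.47 ± 0.24 in day 10. In adalimumab they averaged 0.21 ± 0.06 (SD, n = 3) in day 0, 0.04 ± 0.57 in day 3, -0.39 ± 0.29 in day 7 and -0.12 ± 0.22 in day 10 (n = 2). The day 0 value was 0.046 with medians over members and 0.34 without Gapdh, Pkm, Eno1 and Pgam1. The score was above 0 in every library of days 0 and 3 except adalimumab day 3 replicate 2 (-0.60). It was below 0 in every library of days 7 and 10 except control day 7 replicate 1 (0.06) and adalimumab day 10 replicate 1 (0.04). These scores are descriptions with no test, and the later days cannot be told apart from the sex of the mice or from their own series of label numbers.

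**Figure D4:**
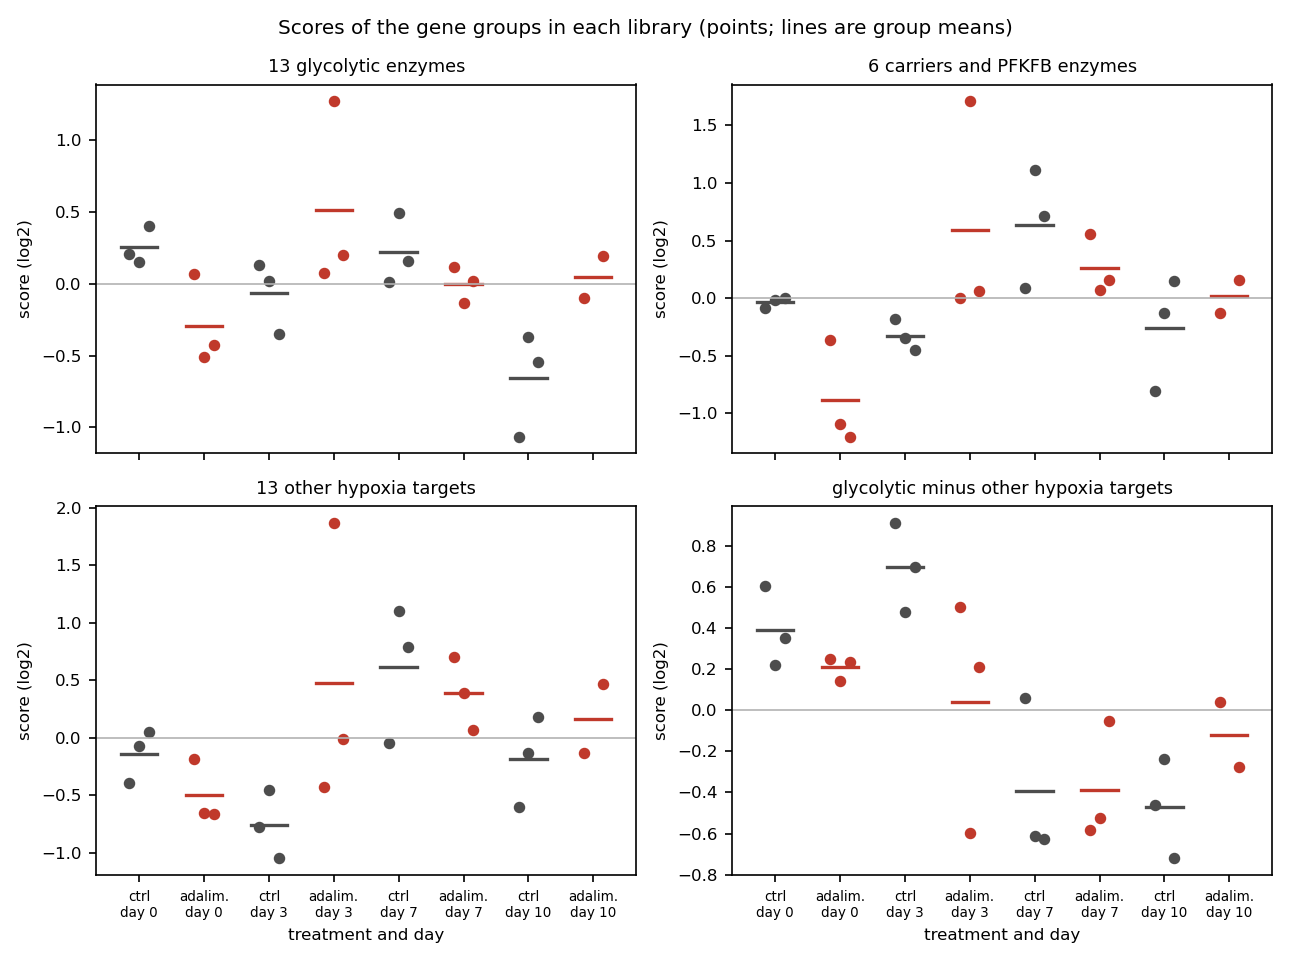
Scores (vertical axis, log2) of the 3 gene classes and the difference of glycolytic and other hypoxia scores, for each library (points) and group mean (lines), by treatment and day (ctrl, control in grey; adalim., adalimumab in red). The difference lies mostly above 0 on days 0 and 3 and mostly below 0 on days 7 and 10, and adalimumab day 3 replicate 2 stands highest in the first 3 panels, at 1.27, 1.71 and 1.87.

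The second question was whether adalimumab wounds differed from control wounds. edgeR called 0 of 33 members on day 0, where 0.269% of all genes were called (0.264% higher and 0.00433% lower), and 0 on days 3, 7 and 10, where 0% were called. For the mean of days 3, 7 and 10 it called 0 members and 0.00433% of all genes. At an unadjusted p under 0.05, 7 members were lower on day 0, 21 higher on day 3, 1 lower on day 7, 5 higher on day 10 and 11 higher in the mean. The background at that level was 3.86%, 9.69%, 2.04%, 7.72% and 9.24% of all genes in the same directions. DESeq2 called 2 members lower on day 0, where it called 0.506% of all genes lower, and 8 higher on day 3, where it called 2.6% higher. It called 0 on day 7 (0.026% of all genes in either direction), 2 higher on day 10 (1.51%) and 3 higher in the mean (3.86%).

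On day 0 the members were mostly lower in adalimumab, 30 of 33, with a median log2 difference of -0.57 where the median of all genes was 0.00. The largest was Slc16a3 (-1.13 ± 0.57 SE, adjusted p = 0.404, 95% interval -2.32 to 0.06), and Bnip3 (-1.09 ± 0.50 SE) and Hk2 (-0.92 ± 0.44 SE) did not overlap between arms. Aldoc had the largest positive value (0.30 ± 0.57 SE). Adalimumab day 0 replicates 2 and 3, which carry the hair follicle signal, had the lowest glycolytic scores of the 6 libraries (-0.51 and -0.43, against 0.07 in replicate 1 and 0.15 to 0.40 in control). They were also lowest of the 6 in muscle markers (7477 and 8538 CPM, against 14565 or more) and adipocyte markers (2015 and 1378 CPM, against 2683 or more). In proliferation markers they were highest (773 and 694 CPM, against 211 or less). The part of the hair follicle or of these other tissues in the scores was not tested. Without adalimumab day 0 replicate 1, 3 members were called lower, where 6.54% of all genes were called in either direction.

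On day 3, 31 of 33 members were higher in adalimumab, with a median of 0.88 where that of all genes was 0.03. Medians were 0.74 for glycolytic enzymes, 1.24 for carriers and PFKFB enzymes and 1.65 for other hypoxia targets. Without adalimumab day 3 replicate 2 these medians were 0.22, 0.28 and 0.32. Ddit4 had the largest value (2.92 ± 0.71 SE, adjusted p = 0.152), followed by Egln3 (2.75 ± 0.79 SE), and Hif1a the lowest (-0.19 ± 0.38 SE). Without adalimumab day 3 replicate 2, Ddit4 stood at 1.17 and Egln3 at 1.37. Control day 3 held 8.69, 30.2 and 8.57 CPM of Ddit4 and adalimumab day 3 38.4, 289 and 32.7 CPM, without overlap. Without adalimumab day 3 replicate 3, 5 members were called (1.42% of all genes), and without control day 3 replicate 2, 3 (3.63%). Marker lists had medians of 2.92 for adipocyte, 2.32 for inflammatory mediators, 2.26 for muscle, 2.19 for erythrocyte, 2.10 for wound keratinocyte and 1.83 for neutrophil markers in the same comparison, with 0 called. Their part in the members' values was not tested.

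On day 7 27 of 33 members were below 0, with a median of -0.27. Hilpda had the lowest value (-1.11 ± 0.55 SE, adjusted p = 1) and Egln3 the highest (1.02 ± 0.75 SE), and neither overlapped between arms. The unadjusted call was Hk2 (-1.03 ± 0.44 SE). On day 10, 28 members were above 0 and the median was 0.37. Egln3 (2.69 ± 0.83 SE, adjusted p = 0.221) and Aldoc (2.45 ± 0.64 SE, adjusted p = 0.198) had the largest values and Hilpda the lowest (-1.17 ± 0.63 SE), all without overlap, from 2 adalimumab libraries. Without adalimumab day 10 replicate 2, Egln3 stood at 1.55. All 13 glycolytic enzymes lay above 0 on day 10, with a median of 0.46, and in the mean of days 3, 7 and 10, with a median of 0.28. Keratinocyte markers were higher in median in the same comparisons, with 0 called: differentiated epidermis at 3.09 and 2.25, wound keratinocyte at 2.57 and 2.01, and basal keratinocyte at 1.75 and 1.03. Their part in the enzymes' values was not tested. Without control day 3 replicate 2, adalimumab day 3 replicate 1 or adalimumab day 7 replicate 1, 2 members were called in the mean, against 4.34%, 2.17% and 2.47% of all genes. In that mean Egln3 (2.15 ± 0.46 SE, adjusted p = 0.0627, 95% interval 1.20 to 3.11) and Aldoc (1.33 ± 0.35 SE, adjusted p = 0.0829) came nearest to the threshold, and Slc16a1 had the lowest value (-0.26 ± 0.21 SE). DESeq2 called Egln3 at an adjusted p of 0.000358 and Aldoc at 0.0066. For Egln3 the edgeR adjusted p was 0.0374 with no filter, 0.0486 with the replicate number as a block and 0.0337 without adalimumab day 3 replicates 1 and 2. It was 0.0568 with other size factors, 0.0526 with a stricter filter and 0.0878 with the compared groups alone.

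The third comparison asked whether the change from day 0 differed between the arms. On day 3, 4 members had a change that, taken with its sign, was higher in adalimumab: Bnip3, Pfkfb3, Tpi1 and Pfkfb4. Bnip3, Pfkfb3 and Tpi1 fell in control and had no call in adalimumab, while Pfkfb4 rose in adalimumab and had no call in control. Of all genes, 0.234% were called as higher in adalimumab and 1.57% as lower. In the lower direction 0 members were called (0 also at an unadjusted p under 0.05, against 10.6% of all genes, and by DESeq2, against 4.77%). The difference of log2 differences was 3.14 ± 0.71 SE, adjusted p = 0.031 for Bnip3, 3.01 ± 0.63 SE, adjusted p = 0.0261 for Pfkfb3, 1.78 ± 0.41 SE, adjusted p = 0.0358 for Tpi1 and 1.45 ± 0.31 SE, adjusted p = 0.0276 for Pfkfb4. Bnip3 went down in control, from 188, 132 and 173 CPM to 35.1, 38.1 and 34.1, and from 124, 63.5 and 44.2 to 154, 233 and 57.7 in adalimumab, where replicate 3 of day 3 lay below replicates 1 and 2. The 3 libraries of adalimumab day 0 also lay below all of control day 0 for Bnip3 and Pfkfb4. For Tpi1 and Pfkfb3 the day 0 groups overlapped, with lower means in adalimumab (238 against 468 CPM, and 141 against 257 CPM). Both days therefore enter the difference for each of the 4 genes. All 3 libraries of adalimumab day 3 lay above all of control day 3 for each of the 4 genes. The test that picked these genes used the same values, so this is no separate support. For Pfkfb4 the nearest libraries were at 28.2 CPM in adalimumab and 28.1 CPM in control. Egln3 had the largest value of all members (3.38 ± 1.08 SE, adjusted p = 0.0985) and was not called. Its adalimumab day 3 values, 15.6, 231 and 64.0 CPM, are uneven.

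None of the 4 calls stood in every alternative. With the animal as a block the adjusted p was 0.185, 0.185, 0.23 and 0.207 for values of 3.02, 2.78, 1.77 and 1.46, and 0 members were called. In a fit of the 4 groups alone 0 were called as well, with nearly the same values. Leaving out 1 library gave 0 to 12 calls. It gave 0 without any library of control day 0, without adalimumab day 0 replicate 2 or 3, without control day 3 replicate 1 and without adalimumab day 3 replicate 1 or 2. It gave 2 without control day 3 replicate 3, 9 without adalimumab day 0 replicate 1 (7.73% of all genes) and 12 without adalimumab day 3 replicate 3 (4.66%). DESeq2 called 15 higher, and 4.24% of all genes, and 26 members were higher at an unadjusted p under 0.05, against 9.87% of all genes. Marker lists moved in the same comparison, with medians of 4.37 for inflammatory mediators (1 of 8 called), 3.86 for adipocyte, 3.60 for muscle, 3.21 for erythrocyte and 2.83 for neutrophil markers (0 called in these 4). Hair follicle markers had a median of -3.36 (1 of 12 called) and proliferation markers of -2.60 (8 of 8 called). The part of these cells in the 4 calls was not tested. On days 7 and 10 edgeR called 0 members for the difference of changes (4 on day 10 without adalimumab day 0 replicate 1, against 2.43% of all genes), and 0% of all genes. At an unadjusted p under 0.05 there were 0 on day 7, against 7.47% of all genes in either direction, and 13 higher on day 10, against 5.07%. DESeq2 called 0 on day 7 (0.25% of all genes) and 1 higher on day 10 (0.816%).

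**Figure D5:**
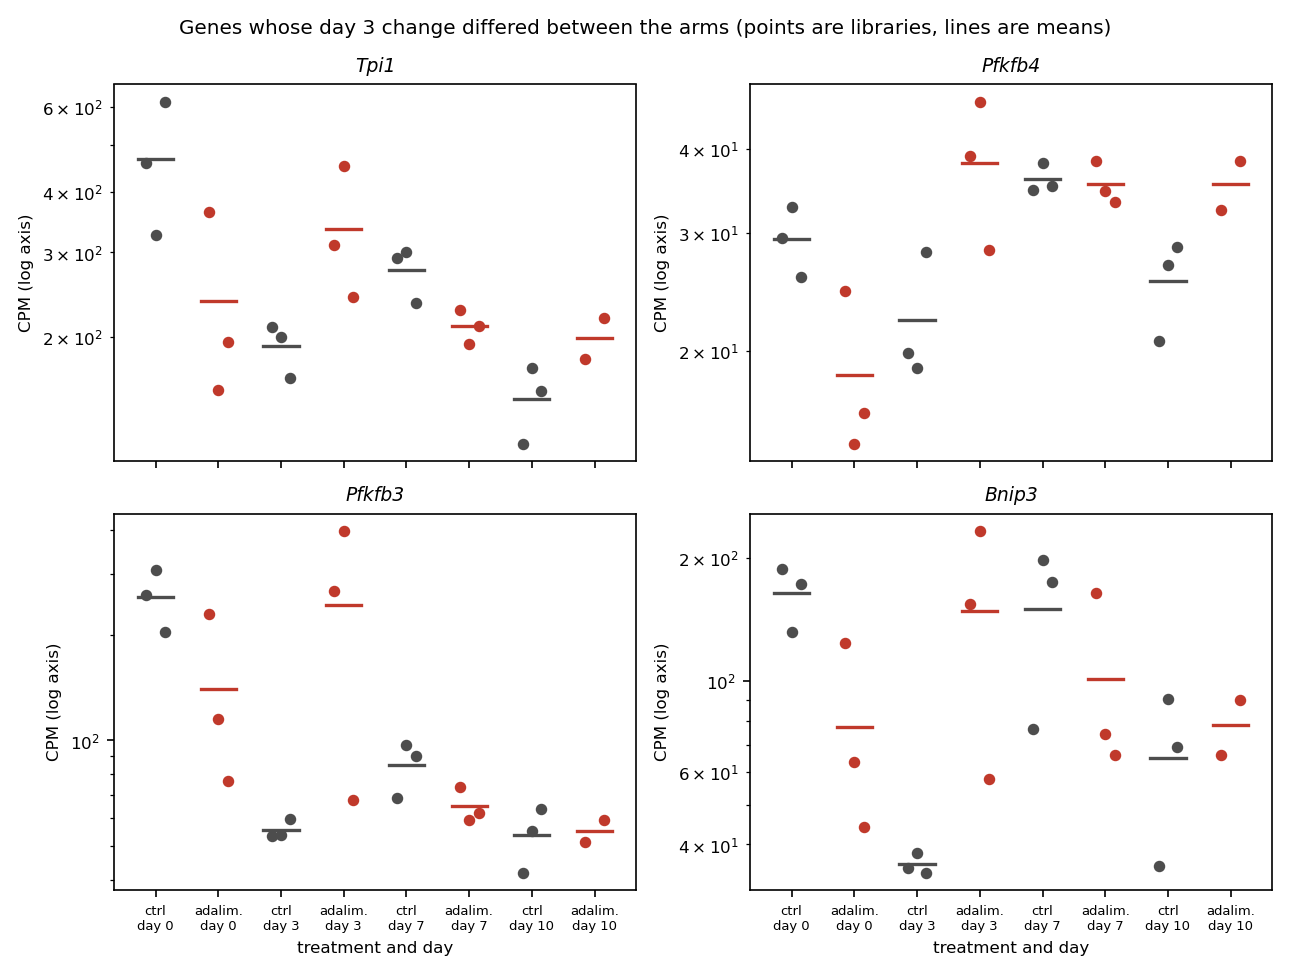
CPM on a log axis (vertical, own scale in each panel) of Tpi1, Pfkfb4, Pfkfb3 and Bnip3 in each library (points) and the group mean (lines), by treatment and day (ctrl, control in grey; adalim., adalimumab in red). On day 3 all red points lie above all grey points, with Bnip3 at 154, 233 and 57.7 CPM against 35.1, 38.1 and 34.1 CPM.

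Lists of other genes of the pathways put the members in context. Among all genes, 17.5%, 16.4% and 16.2% rose and 17.1%, 17% and 18.2% fell in control by days 3, 7 and 10, and 11.9%, 14.6% and 9.02% rose and 9.54%, 17.9% and 5.41% fell in adalimumab. Of 29 tested genes of a wider glycolysis list (other isoenzymes, pyruvate entry, glycogen), 4 rose and 17 fell in control by day 3, 4 and 17 by day 7 and 3 and 19 by day 10. In adalimumab 1 rose and 3 fell by day 3, 3 and 20 by day 7 and 2 and 9 by day 10. The falls hold forms that muscle uses: beside Pgam2, Eno3 and Pfkm, the insulin-driven carrier Slc2a4 (-5.24 ± 1.07 SE in control day 3), the glycogen synthase Gys1 (-2.42 ± 0.39 SE) and the pyruvate dehydrogenase kinases Pdk2 (-3.53 ± 0.63 SE) and Pdk4 (-3.74 ± 1.19 SE). Hk3, the hexokinase of leukocytes, rose by day 3 in both arms, by 2.23 ± 0.52 SE and 4.54 ± 0.58 SE, and Eno2 rose by day 7, by 2.56 ± 0.37 SE and 2.48 ± 0.36 SE. Gys1 was the wider glycolysis gene whose change from day 0 to day 3 was called as different between the arms (2.36 ± 0.54 SE, adjusted p = 0.0317).

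Of 39 genes of a wider hypoxia list, 6 rose and 16 fell in control by day 3, 13 and 10 by day 7 and 7 and 13 by day 10. In adalimumab 7 rose and 4 fell by day 3, 9 and 8 by day 7 and 4 and 3 by day 10. The collagen-modifying targets Lox and Plod2 rose on day 3 in control (2.15 and 3.95) and in adalimumab (2.23 and 1.63), and on day 7 (2.90 and 5.36, then 2.88 and 2.77). Hmox1, which breaks down haem, rose by 4.43 ± 0.68 SE and 4.13 ± 0.67 SE on day 3. Vegfa, the vessel growth factor, was called in control day 7 (1.95 ± 0.72 SE, adjusted p = 0.0465), from 86.8, 75.7 and 107 CPM to 104, 672 and 262. Ppp1r3c, a glycogen scaffold that HIF-1 induces and muscle holds at high level, fell in control by day 3 (-7.15 ± 1.18 SE). Hif1an, the asparagine hydroxylase that restrains HIF, was lower on day 3 in both arms (-1.35 ± 0.25 SE and -0.77 ± 0.25 SE). Arnt2, a partner subunit, had a change from day 0 to day 3 that was called as smaller in adalimumab (-2.25 ± 0.52 SE, adjusted p = 0.0352).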

How the data were processed

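Bulk RNA sequencing with 50-base single reads from a stranded total RNA kit gave 23 libraries in 8 groups of treatment and day. The authors deposited 1 table of whole-number counts per gene, with no normalization, and reads were aligned with STAR to GRCm39 per the submitters' processing notes. The STAR version, the counting tool, its strand setting and the annotation were not given in the sources used here. Nothing in the labels says more of how replicates were made, so p-values measure the spread between these libraries.

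The counts were fitted with edgeR 4.0.16 in R 4.3.3: genes passed filterByExpr (minimum count 10, minimum total 15), TMM factors scaled the libraries, and 1 quasi-likelihood model over all 8 groups gave 14 comparisons with Benjamini-Hochberg adjustment over 23083 genes. CPM and log2 CPM (prior count 2) were computed from the counts. The total per library, 33080930 counts or more, sets the counting error, and the biological coefficient of variation was 42.5%. No 2 libraries of a group were identical. The fit was tested on simulated data. Alternatives were DESeq2 1.42.0, other size factors, no filter, a stricter filter, blocks, the compared groups alone, and left-out libraries.

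Members and lists were chosen with earlier results of these data known. By the naming rule, values in every library are given for members called in a treatment comparison or a difference of changes, for 14 listed members, and for the highest and lowest member of a comparison. The other members are given by counts and ranges, and wider-list genes where called. The per-library values of Pgam1, Eno1, Gapdh, Pgam2 and Eno3 fall outside it and were chosen after their values were seen. Column numbers in the files tie day 0 and day 3 libraries of an arm to the same animals. Deviations of same-numbered libraries correlated at -0.08, -0.04 and -0.07 in control and at 0.26, -0.11 and 0.26 in adalimumab.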

Additional observations from a re-analysis of the deposited data

Results flagged for a closer look

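For 4 members the change from day 0 to day 3 differed between the arms by a test of that difference itself, edgeR's quasi-likelihood test with Benjamini-Hochberg adjustment. The log2 change, taken with its sign, was higher in adalimumab by 3.14 for Bnip3, by 3.01 for Pfkfb3, by 1.78 for Tpi1 and by 1.45 for Pfkfb4. Bnip3, Pfkfb3 and Tpi1 fell in control (-2.20, -2.21 and -1.29) and had no call in adalimumab. Pfkfb4 rose in adalimumab (1.05) and had no call in control. All 3 adalimumab libraries of day 3 lay above all 3 control libraries of day 3 for each of the 4 genes, values that the test itself used. The day 0 means of the 4 genes were lower in adalimumab than in control, so both days enter the difference. With the animal as a block none of the 4 was called.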

How the results depend on the processing

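Of the 59 member calls in all comparisons, 59 remained with DESeq2, 58 with other size factors, 55 with no filter and 57 with a stricter filter, and no sign turned in these. Fewer, 37 of the 59, remained with the compared groups alone, again with no sign turned. DESeq2 called 2 members between arms on day 0, 8 on day 3, 2 on day 10 and 3 in the mean of days 3, 7 and 10, then 7 for adalimumab day 10 against day 0, and 15 and 1 for the difference of changes on days 3 and 10. With no filter 1 was called in the mean. The compared groups alone gave 3 between arms on day 10 (9.14% of all genes), 2 for adalimumab day 3 (7.74%), 10 for adalimumab day 10 (22%) and 0 for the difference on day 3 (0%). Without adalimumab day 0 replicates 2 and 3 there were 0, 1 (lower) and 0 calls for adalimumab days 3, 7 and 10 and 0 for the difference on day 3. Without adalimumab day 3 replicates 1 and 2 there were 1 in the mean, 5 for adalimumab day 3 and 0 for the difference on day 3, and Ddit4 turned sign in the mean (-0.067). The causes of these changes were not tested.

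Leaving out each library in turn gave 0 to 3 calls between arms on day 0, 0 to 5 on day 3 and 0 to 2 in the mean. It gave 4 to 9 for control day 3, 4 to 10 for control day 7, 8 to 22 for adalimumab day 3 and 0 to 3 for adalimumab day 10. For the difference of changes it gave 0 to 12 on day 3 and 0 to 4 on day 10. The glycolytic minus hypoxia score of adalimumab day 0 (0.21) was 0.046 with medians over members and 0.34 without Gapdh, Pkm, Eno1 and Pgam1.

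With the animal as a replicate block, 3 members were called for control day 3, 5 for adalimumab day 3 and 0 for the difference of changes on day 3, and 8 of 28 calls remained. With the replicate number as a block, 26 of 31 calls remained, 1 member was called in the mean and 2 for adalimumab day 10.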

Other observations

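Across the 23 libraries, Ndrg1 and Higd1a followed the score of the other hypoxia targets most closely (Pearson 0.91 each, and 0.88 each without adalimumab day 3 replicate 2), and Slc2a1 did so at 0.87 (0.79). Pfkfb3 (0.28, and 0.00 without that library), Ldha (0.32, then 0.12), Aldoc (0.33, then 0.26), Tpi1 (0.38, then 0.23), Hif1a (0.39, then 0.24) and Gapdh (0.39, then 0.09) had the lowest values of the 33 members with all libraries. With the glycolytic score, Pkm stood at 0.86, Gpi1 and Pfkl at 0.84 each and Pgam1 at 0.39 (0.19). These values describe libraries that share groups and tissue makeup, and each gene was left out of the score it was set against.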
